A study of Mus musculus with 6 samples.

Results

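Neural crest cells migrate from the dorsal neural tube and give rise to peripheral glia, to sympathetic neurons and to the chromaffin cells of the adrenal medulla. The data below concern 29 mouse genes that mark these lineages, read in RNA from whole embryonic kidneys. A gene was taken if at least 1 probe set (a group of short probes on the array) carried its symbol and no other in the platform annotation. All 29 were found, with 62 probe sets, among 18193 genes on the array that had such a probe set. They fall into 6 glial genes, 8 sympathetic genes and 15 pan-neuronal genes.

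The kidneys came from mouse embryos at embryonic day 12.5 of the C57BL/6 strain, in 3 biological replicates of each genotype, wild-type and Ret-deficient, with 1 array each. The titles and genotype labels call the kidneys Ret-deficient, while the source label gives the knockout to the pregnant female; the genotype label was used here. Neither the allele of Ret nor the litter or count of embryos per sample is in the labels, so the p-values measure the spread between these 6 samples and no more. Each value is a MAS5 signal, a background-subtracted intensity in arbitrary units that the authors scaled to the same trimmed mean on every array. Ret itself, the targeted gene, read 13315, 11042 and 10193 on the wild-type arrays and 93.3, 479.8 and 334 on the Ret-deficient arrays (an exact two-sided permutation p of 0.1). Whether these probes lie in a deleted part of the gene is not given.

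Ret is the receptor through which GDNF acts on the ureteric bud, and it is also made by neural crest cells that become enteric and sympathetic neurons. Schwann cell precursors, the early glia of peripheral nerves, carry the neuregulin receptor Erbb3 and the transcription factor Sox10. Sympathetic neurons and chromaffin cells switch on Phox2a, Hand2 and Isl1, then the enzymes that make noradrenaline and the granins of the vesicles that store it. The sympathetic chain and the adrenal lie beside the kidney in the embryo, and nerves enter the kidney along its vessels.

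Of the 29 members, 19 had a brightest probe set above the brightest of 27 bacterial control probe sets, which measure no mouse RNA, on all 6 arrays. The brightest probe sets of 21 members were bright enough to be tested. None of them passed the limma test at an adjusted p of 0.05, where 0% of all 22519 tested probe sets passed either. At an unadjusted p under 0.05, 2 members were lower in Ret-deficient kidneys, Erbb3 and Tubb3, and 0 were higher, beside 2.74% of all tested probe sets that were lower and 2.63% that were higher. The 3 wild-type and 3 Ret-deficient values did not overlap for 1 of the 29 members, Erbb3, which was lower. Over all genes on the array 6.14% were lower without overlap and 5.06% were higher without overlap. The median log2 difference (Ret-deficient minus wild-type, on log2 of signal plus 16) over the 29 members was -0.17, with 10 differences above 0 and 19 below, beside a median of -0.02 over all genes.

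**Figure D1:**
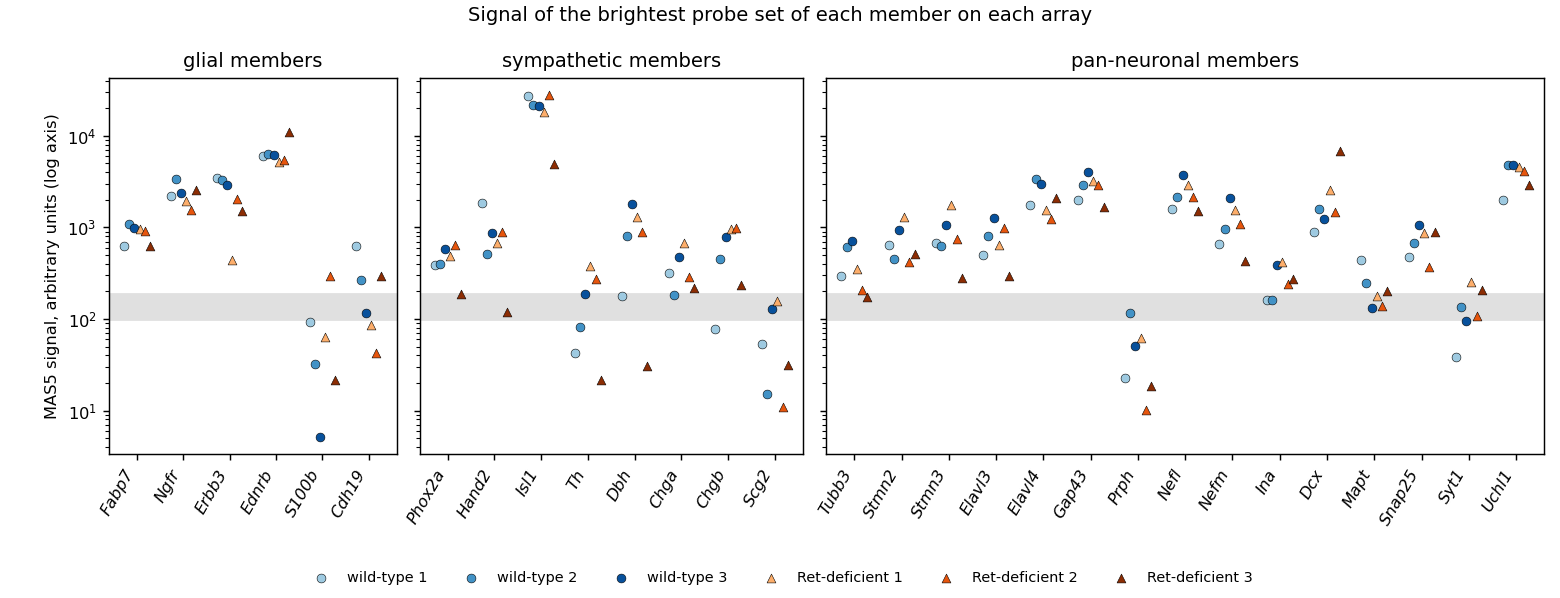
Signal of each member's brightest probe set on each array, on a log axis in arbitrary units, with circles for wild-type and triangles for Ret-deficient samples; the grey band spans the brightest bacterial control of the 6 arrays, from 97.2 to 187. The groups separate for Erbb3 and overlap for the other members, and S100b, Scg2, Prph and Syt1 lie in or below the band on most arrays.

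Some arrays stood apart from the rest. Wild-type 1 had a beta-actin 3 prime to 5 prime signal ratio, a gauge of RNA integrity and amplification, of 10.7 against 3.88 to 5.21 on the other arrays. Ret-deficient 1 had the lowest summed signal of 13 ureteric epithelium genes, 22070 against 55777 to 82480 on the other arrays. Ret-deficient 3 had the highest summed signal of 12 macrophage genes, 73120 against 20823 to 38135 on the other arrays. All 10 kidney identity genes with a probe set were above the bacterial controls on every array, and the nephron progenitor gene Six2 differed by a log2 value of -0.01 (SE 0.26).

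The glial members were read from well above the bacterial controls down to their level. Erbb3, the receptor for neuregulin on Schwann cell precursors and also a receptor of many epithelia, read 3479, 3326 and 2931 in wild-type kidneys and 437, 2042 and 1493 in Ret-deficient kidneys. Every Ret-deficient sample was below every wild-type sample, and Ret-deficient 1 was the lowest. The means were 3245 ± 283 and 1324 ± 816 (SD, n = 3 per group). The log2 difference was -1.54 (SE 0.53, 95% interval -2.81 to -0.27), and limma gave an adjusted p of 0.891. An exact two-sided permutation test gave p = 0.1, the smallest that 3 arrays against 3 allow. Without Ret-deficient 1 the log2 difference was -0.88. The epithelial cadherin Cdh1 was also lowest on that array, at 71.7, 3028 and 2832 in Ret-deficient kidneys against 3715, 5360.5 and 4284 in wild-type kidneys, and its part in the Erbb3 result was not tested. In whole organs, fewer cells of a type and less RNA per cell cannot be told apart.

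The other glial genes had groups that overlapped. Fabp7, a fatty acid-binding protein of early glia, read 626, 1101 and 979.9 in wild-type and 956, 923 and 629 in Ret-deficient kidneys, for a log2 difference of -0.09 (SE 0.28, 95% interval -0.75 to 0.56). Ngfr, the low-affinity neurotrophin receptor of crest cells and early glia, read 2208, 3411 and 2354 and then 1939, 1538 and 2563, a log2 difference of -0.40 (SE 0.26). The lowest values of Ngfr were those of Ret-deficient 1 and Ret-deficient 2, while Ret-deficient 3 lay within the wild-type range.

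Ednrb, the endothelin receptor needed by migrating crest cells and also made by vessels, read 5974, 6349.7 and 6141 in wild-type kidneys and 5163, 5442 and 10907 in Ret-deficient kidneys. Ret-deficient 3 was the highest and the other Ret-deficient samples were the lowest, so the groups overlapped and the log2 difference was 0.13 (SE 0.30). A dimmer Ednrb probe set, 1423594_a_at, was higher in Ret-deficient samples without overlap, at 482, 463 and 548 against 568, 581 and 841, and the third differed by -0.12. The probe sets of Ednrb thus gave different orders of the samples.

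Cdh19, a cadherin of Schwann cell precursors, was too dim to be tested and read 619, 264 and 116 in wild-type and 85.3, 42.1 and 294 in Ret-deficient kidneys. It was above the bacterial controls on 4 arrays, and the log2 difference was -1.23 (SE 0.80, 95% interval -3.18 to 0.72). S100b, a calcium-binding protein of more mature glia, was above the bacterial controls on Ret-deficient 2 alone, where it read 298. Over the 6 glial genes, 2 differences were above 0 and 4 below, with a median log2 difference of -0.25.

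The sympathetic members varied widely between samples of the same genotype. The median within-group SD of the 8 genes was 1.24 on the log2 scale, beside 0.38 over all genes on the array, and 0 of them had groups that did not overlap. Differences lay above 0 for 3 genes and below 0 for 5, with a median of -0.18. Wild-type 1 and Ret-deficient 3, a pair noted after the values were seen, were the lowest 2 samples for 10 of the 29 members (34.5%), beside 7.43% of all genes. The pair was picked for the members and not for all genes, so these shares are not like measures and were not tested. The 10 were Th, Dbh, Chgb, Phox2a, Elavl3, Gap43, Nefl, Nefm, Uchl1 and Fabp7. The promoters of Th, Dbh and Chgb, the genes among them that act in making and storing noradrenaline, are shown so that their values can be read beside them. They are RefSeq sequence of the build GRCm38.p6, 250 bases up to the gene's start on the gene's strand, at chr7:142899996-142900245 (minus strand), chr2:27165257-27165506 (plus strand) and chr2:132781392-132781641 (plus strand). Capitals mark the cAMP response element TGACGTCA in Th and Chgb, and in Dbh its first 5 bases on the other strand.
Th: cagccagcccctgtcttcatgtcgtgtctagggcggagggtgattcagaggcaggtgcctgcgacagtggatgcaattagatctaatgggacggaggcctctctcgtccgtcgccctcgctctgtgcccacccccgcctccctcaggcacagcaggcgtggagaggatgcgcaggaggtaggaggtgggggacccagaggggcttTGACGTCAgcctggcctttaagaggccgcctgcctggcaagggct
Dbh: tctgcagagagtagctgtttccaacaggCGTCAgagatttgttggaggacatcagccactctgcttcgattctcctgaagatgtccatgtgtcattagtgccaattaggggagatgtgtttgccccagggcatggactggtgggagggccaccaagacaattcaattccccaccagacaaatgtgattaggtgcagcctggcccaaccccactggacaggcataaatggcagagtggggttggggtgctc
Chgb: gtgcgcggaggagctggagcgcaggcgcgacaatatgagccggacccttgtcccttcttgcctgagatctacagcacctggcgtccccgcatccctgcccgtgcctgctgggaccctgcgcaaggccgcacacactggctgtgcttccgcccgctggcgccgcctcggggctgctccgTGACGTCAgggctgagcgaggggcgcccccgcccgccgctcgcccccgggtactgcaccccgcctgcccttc

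The cAMP response element is the site of CREB-family factors, which act on catecholamine and granin genes in chromaffin cells. Searched on both strands of the 300-base promoters, 250 bases before to 50 after the start, TGACGTCA was found in 588 of 32851 promoters of the table (1.79%) and in 3 of the 21 members that have an entry there. The 3 were Th, 45 bases before the start, Scg2, 68 bases before it, and Chgb, 72 bases before it. Dbh lacked the whole element and held TGACG on the reverse strand 222 bases before its start. These letters were found in 20.8% of all promoters and in 9 of the 21 members. Besides Th, Dbh and Chgb these were Chga, Hand2, Isl1, Scg2, Ednrb and Elavl4, whose lowest samples were not the pair of wild-type 1 and Ret-deficient 3. A member counted once if any of its promoters matched, whereas the percentages are of promoters, so they are not in the same unit. Of the 10 members lowest on wild-type 1 and Ret-deficient 3, 7 have an entry, and Phox2a, Elavl3, Fabp7 and Uchl1 held neither TGACGTCA nor TGACG. TTCAGCACC, 1 part of the RE1 site bound by the repressor REST, was in 0.371% of promoters and in 1 member, Scg2. The other part of RE1 was in 0.137% of promoters and in 0 members. A match describes letters in this window and was not tested as a site.

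Th, tyrosine hydroxylase, catalyses the first step of catecholamine synthesis and was too dim to be tested. It read 42.3, 81.7 and 188 in wild-type kidneys and 383, 276 and 21.5 in Ret-deficient kidneys, above the bacterial controls on 3 arrays. The lowest values were those of wild-type 1 and Ret-deficient 3, 1 sample of each genotype. The log2 difference was 0.64 (SE 0.98, 95% interval -1.74 to 3.02).

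Dbh, the enzyme that turns dopamine into noradrenaline, differed widely between samples of the same genotype. Its brightest probe set, 1459848_x_at, read 179, 809.6 and 1784 in wild-type kidneys and 1300.0, 897 and 31.0 in Ret-deficient kidneys. Wild-type 1 and Ret-deficient 3 were again the lowest, and both lay below the bacterial controls of their own array. The other 2 Dbh probe sets gave the same 2 lowest samples. Probe set 1450670_at read 80.7, 329 and 719 and then 578, 482 and 48.7, and 1447592_at read 69.8, 372 and 514 and then 451, 356 and 124. The genotype means were 924 ± 809 and 743 ± 648 (SD, n = 3 per group), a log2 difference of -0.79 (SE 1.38, 95% interval -4.06 to 2.49), with an adjusted p of 0.980 by limma and p = 0.7 by the exact two-sided permutation test. The within-group SD of Dbh, 2.19, was above that of 99.9% of the 11581 tested genes.

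**Figure D2:**
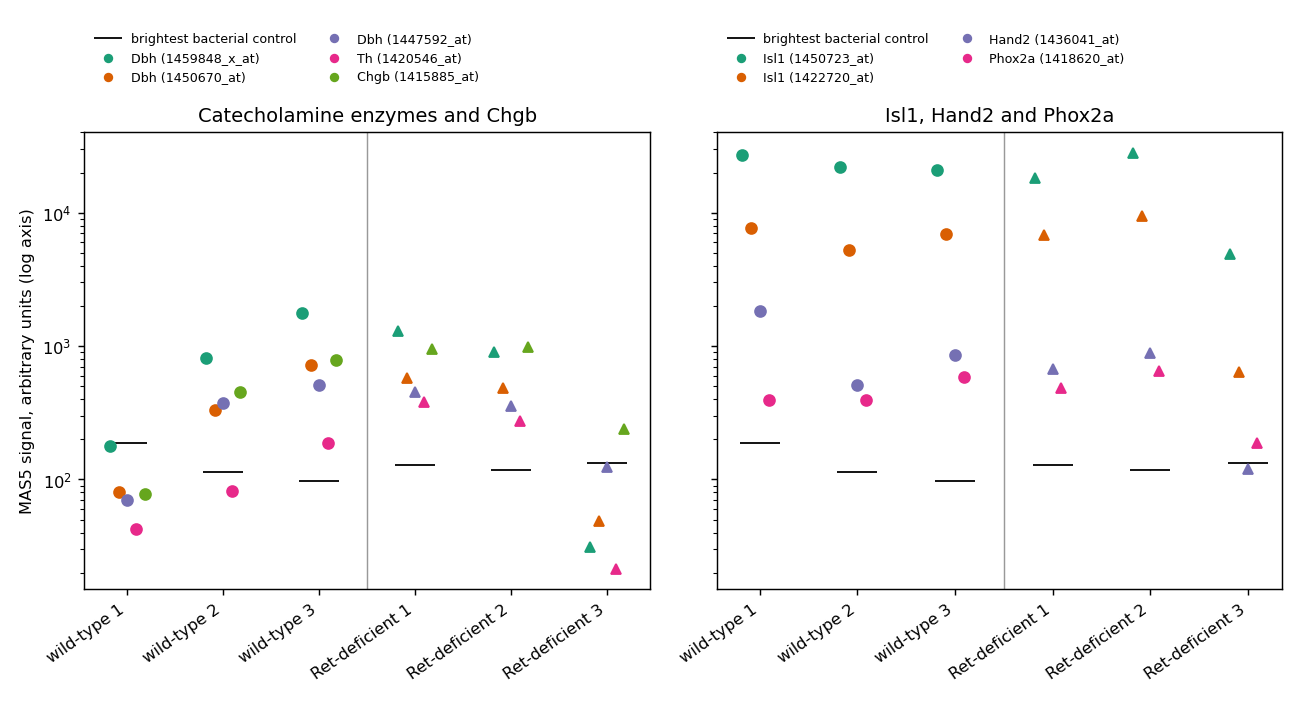
Signal on each array, on a log axis in arbitrary units, of the catecholamine enzymes and Chgb (left) and of Isl1, Hand2 and Phox2a (right); circles are wild-type, triangles Ret-deficient, and the short lines give the brightest bacterial control of that array. On the left the 3 Dbh probe sets, Th and Chgb are lowest on wild-type 1 and Ret-deficient 3, and on the right all 4 probe sets are lowest on Ret-deficient 3.

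The granins are acidic proteins of dense-core vesicles, in which catecholamines are stored. Chgb read 78.2, 451 and 792 in wild-type kidneys and 958, 978 and 237 in Ret-deficient kidneys, and its lowest samples were those of Th and Dbh. Its log2 difference was 0.93 (SE 0.88, 95% interval -1.17 to 3.03), and its within-group SD of 1.39 was above that of 99.4% of tested genes.

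Chga read 319, 180.5 and 472 in wild-type and 683, 289 and 216 in Ret-deficient kidneys, with a log2 difference of 0.21 (SE 0.49). Its lowest sample was wild-type 2, so that it did not follow Chgb from sample to sample. Scg2 was too dim to be tested, was above the bacterial controls on 2 arrays, and was lowest on Ret-deficient 2 at 10.9 and highest on Ret-deficient 1 at 158.

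Among the transcription factors of the lineage, Isl1 and Hand2 had another order of samples. Isl1, a LIM homeodomain factor of sympathetic and sensory neurons that mesenchyme around the ureter also makes, read 27057, 21854 and 20962 in wild-type kidneys and 18156, 27970.4 and 4863 in Ret-deficient kidneys. Ret-deficient 3 was the lowest and the other 5 samples lay close together. The second Isl1 probe set, 1422720_at, gave the same outlying sample, with 7746, 5268 and 6939.5 and then 6763, 9514 and 635. The log2 difference of the brighter one was -0.77 (SE 0.60, 95% interval -2.21 to 0.66), with an adjusted p of 0.951 by limma.

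Hand2, a basic helix-loop-helix factor needed for noradrenergic differentiation and also present in mesenchyme, read 1832, 514 and 858 in wild-type and 671, 892 and 119 in Ret-deficient kidneys. Wild-type 1, among the lowest samples for Th, Dbh and Chgb, was the highest for Hand2, and Ret-deficient 3 was the lowest and below the bacterial controls. The log2 difference was -1.11 (SE 0.78, 95% interval -2.98 to 0.75). Phox2a, the homeodomain factor that directs autonomic neurons to a noradrenergic identity, read 393, 397 and 582 and then 488, 648 and 188, a log2 difference of -0.19 (SE 0.44). Its lowest samples were Ret-deficient 3 and wild-type 1, as for Th and Dbh, although wild-type 1 and wild-type 2 were nearly equal.

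Ret-deficient 3 was the lowest sample for 5 of the 8 sympathetic genes and among the lowest 2 for 7 of them. The summed signal of the 8 genes on that array was 5708, against 22796 to 31960 on the other arrays, a sum made up mostly of Isl1. Without that array the log2 difference was -0.04 for Isl1, -0.27 for Hand2 and 0.73 for Dbh. The median log2 difference of the 8 genes was then 0.42 in place of -0.18, and it was 0.19 without wild-type 3. The median deviation of the 8 genes from the wild-type mean was 1.06 on Ret-deficient 1, 0.37 on Ret-deficient 2 and -1.34 on Ret-deficient 3. The macrophage genes were highest on Ret-deficient 3, and their part in the sympathetic values was not tested. The beta-actin ratio of wild-type 1 is the highest of all arrays, and its part in the low Th, Dbh and Chgb values of that sample was not tested.

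The adrenal cortex lies next to the chromaffin cells, and its genes give a gauge of adrenal tissue in the samples. Of 10 cortex genes, 5 were above the bacterial controls on all arrays, and their summed signal was 10313 to 17777 in wild-type and 11451 to 16038 in Ret-deficient kidneys. The sums were made up mostly of Fdx1 and Scarb1, which other tissues also make. Wild-type 1 and Ret-deficient 3, the lowest samples for Th, Dbh and Chgb, also had the lowest sums, 10313 and 11451. Both Fdx1 and Scarb1 were lowest on that pair, and Mc2r and Nr0b1 were lowest on Ret-deficient 3. The other cortex genes had other orders. Star and Cyp17a1 were lowest on Ret-deficient 2, and Cyp11a1, Cyp21a1 and Hsd3b1 on Ret-deficient 1. Nr5a1 was lowest on wild-type 3 and highest on wild-type 1. Cyp17a1 and Cyp21a1, defining enzymes of steroid synthesis, were each above the bacterial controls on 1 array, and Cyp11a1 was above them on all 6. The part of adrenal tissue in the sympathetic values was not tested.

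**Figure D3:**
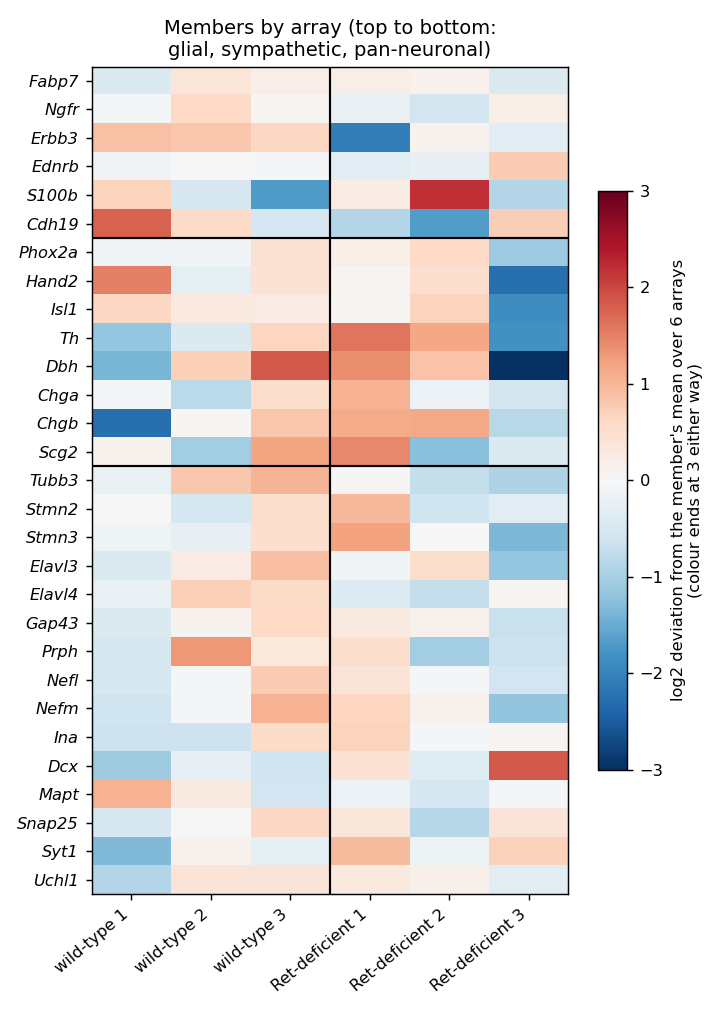
Log2 deviation of each member from its mean over the 6 arrays, with genes in rows, arrays in columns, and the colour ending at 3 in either direction. All 8 sympathetic genes are below their mean on Ret-deficient 3, most strongly Dbh, while Dcx is highest there.

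Of the 15 pan-neuronal genes, 12 were above the bacterial controls on every array, although Tubb3 and Mapt came close to them on some. The groups overlapped for all 15. Differences were above 0 for 5 genes and below 0 for 10, with a median of -0.15. Tubb3, the beta-tubulin of early neurons, had the lowest unadjusted p. It read 292, 612 and 714 in wild-type and 355, 205 and 174 in Ret-deficient kidneys. Wild-type 1 lay below Ret-deficient 1, and the other 2 samples of each genotype were apart. The means were 539 ± 220 and 245 ± 96.5 (SD, n = 3 per group), a log2 difference of -1.06 (SE 0.40, 95% interval -2.00 to -0.12), with an adjusted p of 0.918 by limma and p = 0.2 by the exact two-sided permutation test.

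The neuronal RNA-binding proteins Elavl3 and Elavl4 stabilise transcripts in newly formed neurons. Elavl4 read 1747, 3338 and 2999.6 in wild-type and 1548, 1239 and 2115 in Ret-deficient kidneys, and only wild-type 1 among the wild-type samples fell within the Ret-deficient range. Its log2 difference was -0.70 (SE 0.31, 95% interval -1.44 to 0.04). A dimmer Elavl4 probe set, 1450258_a_at, was lower in Ret-deficient kidneys without overlap, at 618, 581 and 544 against 498, 344 and 366. Elavl3 read 494, 809.5 and 1269.7 and then 643, 985 and 296, lowest on Ret-deficient 3, with a log2 difference of -0.47 (SE 0.50).

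Doublecortin, Dcx, binds microtubules in migrating young neurons and had the highest difference of the tested members. It read 891, 1590.1 and 1244 in wild-type kidneys and 2559, 1455 and 6753 in Ret-deficient kidneys. Ret-deficient 3 was by far the highest sample, while Ret-deficient 2 fell within the wild-type range. The means were 1242 ± 349.8 and 3589 ± 2795 (SD, n = 3 per group), a log2 difference of 1.27 (SE 0.54, 95% interval -0.03 to 2.56), with an adjusted p of 0.923 by limma and p = 0.2 by the exact two-sided permutation test. The second probe set, 1418141_at, was higher in Ret-deficient kidneys without overlap, at 189, 980.1 and 752 against 1109, 989.9 and 4693. Without Ret-deficient 3 the log2 difference of the brighter probe set was 0.67. Dcx was thus highest on the array where the sympathetic factors were lowest, and where the macrophage genes were highest; the part of those cells was not tested.

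The stathmins Stmn2 and Stmn3 regulate microtubules in growing axons. Stmn2 read 642, 448 and 939.7 in wild-type and 1292, 420.2 and 506 in Ret-deficient kidneys, for a log2 difference of 0.01 (SE 0.46, 95% interval -1.10 to 1.12). Stmn3 read 677, 630.0 and 1074 and then 1757, 748 and 282, a log2 difference of -0.09 (SE 0.61). Both were highest on Ret-deficient 1, with the other Ret-deficient samples near or below the wild-type values.

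The neurofilament genes encode the intermediate filaments of axons. Nefm read 658, 966 and 2081 in wild-type and 1565, 1087 and 432 in Ret-deficient kidneys, for a log2 difference of -0.28 (SE 0.57, 95% interval -1.64 to 1.09). Nefl read 1598, 2154 and 3762 and then 2932, 2143 and 1494, a log2 difference of -0.15. Both were highest on wild-type 3 and lowest on Ret-deficient 3, with wild-type 1 the next lowest. Ina, the neurofilament protein alpha-internexin, was too dim to be tested and ranged from 159 to 415 with a log2 difference of 0.47. The brightest probe set of Prph, peripherin, was above the bacterial controls on wild-type 2 alone, at 118, and a dimmer one, 1422530_at, on wild-type 1 alone, at 252.

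The growth cone protein Gap43 read 1968, 2898 and 4045 in wild-type and 3232, 2935 and 1671 in Ret-deficient kidneys, with a log2 difference of -0.18. Uchl1, a ubiquitin hydrolase abundant in neurons, read 2009.5, 4837 and 4851 and then 4558, 4147 and 2918, a log2 difference of 0.07 (SE 0.38, 95% interval -0.84 to 0.98). Uchl1 was lowest on wild-type 1 and next lowest on Ret-deficient 3.

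Of the synaptic genes, Snap25, a membrane fusion protein of nerve endings, read 475, 676 and 1053 in wild-type and 871, 371 and 893 in Ret-deficient kidneys, for a log2 difference of -0.07. Syt1, the calcium sensor of vesicle release, was too dim to be tested, read 38.8, 135 and 95.9 and then 251, 107 and 208, and was above the bacterial controls on 3 arrays. Mapt, the microtubule protein tau, was also below the brightness limit but above the bacterial controls on all arrays, and ranged from 132 on wild-type 3 to 440.3 on wild-type 1. Its log2 difference was -0.48.

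Wild-type 3 was the highest sample for 7 of the 15 pan-neuronal genes, and wild-type 1 was among the lowest 2 for 9 of them. Ret-deficient 3 was the lowest for 6. The median deviation of the 15 genes from the wild-type mean ran from -0.55 on wild-type 1 to 0.49 on wild-type 3, and from -0.35 on Ret-deficient 3 to 0.32 on Ret-deficient 1. The range within each genotype was thus wider than the median difference between genotypes, which was 0.18 without wild-type 3 and 0.11 without Ret-deficient 3. Over the glial genes the same deviations were -0.14 to 0.04 on the wild-type arrays and -0.42 to -0.19 on the Ret-deficient arrays. These medians describe the members and were not tested.

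**Figure D4:**
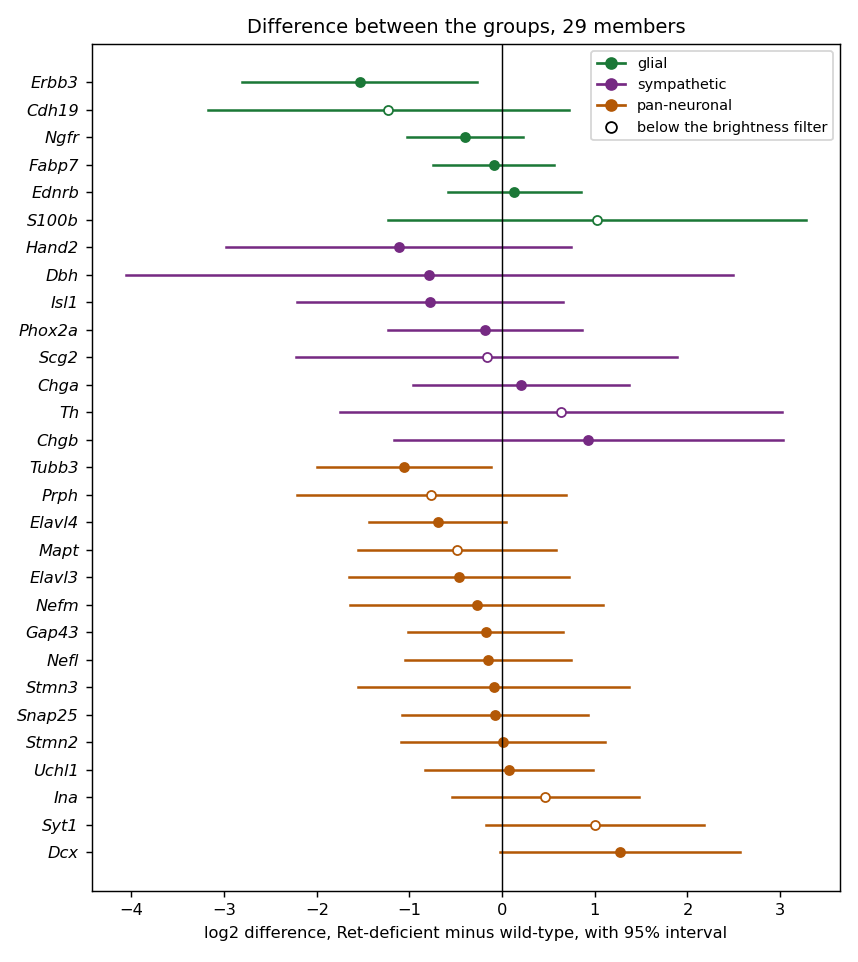
Log2 difference, Ret-deficient minus wild-type, of each member's brightest probe set with its 95% interval from limma; open circles mark members below the brightness limit. The intervals of Erbb3 and Tubb3 lie below 0, and those of the other members include 0.

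Of the 62 probe sets, 31 were tested, 28 were above the bacterial controls on all arrays and 11 on none. Groups did not overlap for 3 that were lower in Ret-deficient kidneys, those of Erbb3 and Elavl4 above and an Elavl3 probe set that was below the bacterial controls on every array. They did not overlap for 2 that were higher, those of Ednrb and Dcx above. Over the brightest probe set of every gene, 6.14% were lower and 5.06% were higher without overlap. The share over all probe sets was not computed, and the counts are no result about the members.

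Further genes of the same lineages were read from 4 lists. Of 13 other neural crest and glial genes, 7 differences were above 0 and 6 below, with a median of 0.02, and 0 passed the adjusted threshold. Lower without overlap were 4 of them (30.8%), beside the 6.14% of all genes given above, and 0 were higher without overlap. Those above 0 were Sox9, Edn3 and Mitf, and also Nrg1, Dct, Gfap and Foxd3, which were too dim to be tested. Sox10, the factor that keeps crest cells multipotent and directs them to glia, read 6971, 3770.1 and 3362 in wild-type and 2268, 1100.4 and 1644 in Ret-deficient kidneys. Its log2 difference was -1.47 (SE 0.37, 95% interval -2.34 to -0.59), with an adjusted p of 0.867 by limma and p = 0.1 by the exact two-sided permutation test, and it stayed between -1.72 and -1.14 with any 1 array left out. Sox2, a factor of neural and glial progenitors, read 1268, 807 and 757 and then 434, 214 and 455, a log2 difference of -1.36 (SE 0.34). The remaining 2 that were lower without overlap were Tfap2a, named after its values were seen, and Tfap2b. Both are transcription factors of the neural crest that kidney epithelia also make.

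Of 17 other sympathetic genes, 5 differences were above 0 and 12 below, with a median of -0.26. Lower without overlap were 3 of them (17.6%), beside 6.14% of all genes. Ddc, which makes dopamine from L-DOPA and is also an enzyme of kidney tubules, read 3144, 2482 and 2464 in wild-type and 1867, 1375 and 1333 in Ret-deficient kidneys. Its log2 difference was -0.82 (SE 0.20), with an adjusted p of 0.867 by limma. Chrna7, a subunit of neuronal acetylcholine receptors, read 871, 1512 and 1639 and then 794, 514 and 538, a log2 difference of -1.08 (SE 0.30). The third was Gata3, a factor of sympathetic neurons and of the ureteric bud, with a log2 difference of -1.14. Ddc and Chrna7 had another order of samples than Th and Dbh, with wild-type 1 above every Ret-deficient sample for both.

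Of the 8 genes of GDNF family signalling, the ligands and receptors that guide both the ureteric bud and crest-derived neurons, 2 differences were above 0 and 6 below. Besides Ret, Gdnf was lower without overlap, with a log2 difference of -0.97, and the median over the 8 was -0.23. Of 28 other pan-neuronal genes, 11 differences were above 0 and 17 below, with a median of -0.18. Without overlap 4 were lower and 2 higher (21.4% together), beside 6.14% of all genes that were lower and 5.06% that were higher. Scg5, a chaperone of dense-core vesicles, read 729, 785 and 922 in wild-type and 370.2, 429 and 462 in Ret-deficient kidneys, for a log2 difference of -0.92 (SE 0.17), with an adjusted p of 0.831 by limma. Dpysl5, a protein of axon guidance, read 627, 756 and 841 and then 268, 611 and 406, a log2 difference of -0.83 (SE 0.30). Nsg1, a neuronal endosome protein, was higher, at 5851, 8471 and 8144 against 9428, 10067 and 10220.2, a log2 difference of 0.42 (SE 0.19). The other 3, named after their values were seen, were Nhlh2 and Stmn4, lower and above the bacterial controls on 3 arrays and on 1 array, and Syt4, higher and above them on 5 arrays.

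**Figure D5:**
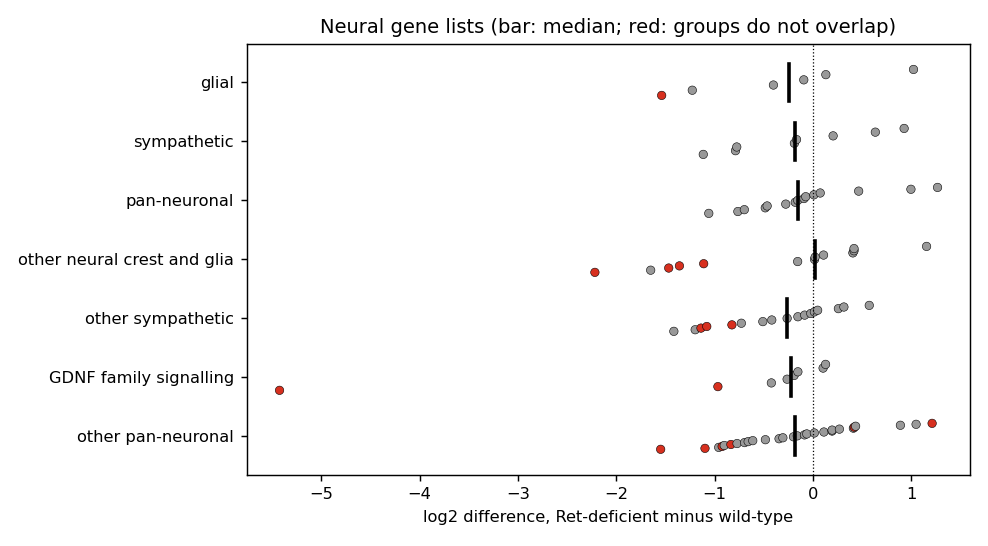
Log2 difference, Ret-deficient minus wild-type, of each gene with a probe set in the 3 member groups and the 4 further neural lists; black bars are medians and red points are genes whose groups do not overlap. The medians lie between -0.26 and 0.02, and the lowest point is Ret at -5.43.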

How the data were processed

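Per the submitters' processing notes the deposited values are MAS5 signal intensities; detection calls and raw probe values were not used here. The values are linear and positive, and their trimmed mean (2 percent cut from each end) was 2500 on all arrays. The design text names a kit for RNA amplification, while the labels' protocol describes standard labelling. The median signal per array was 259 to 352, and precision is limited by the number of arrays.

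Values were used as log2(signal + 16), which makes the folds of dim probe sets too small. No further normalization was applied, as array medians lay within 0.42 log2 units, below the limit of 0.5. Probe sets were tested where the mean was at or above the median over all probe sets without the 64 controls, which kept 22519. Genotypes were compared with limma 3.58.1 (lmFit and eBayes) under R 4.3.3, files were read with data.table (version 1.17.8), and p-values were adjusted by Benjamini-Hochberg over all 22519. The limma step was tested on simulated data. Each gene was represented by its probe set with the highest mean; a probe's level was not set against another's. All members are named. Full values are given where groups do not overlap, or where the highest array is over 3-fold above the lowest and above 500, and for other members where a result turns on them. Of each further list at most 3 genes with a tested probe set and no overlap were named by smallest p, beside a few named after their values were seen. The 3 promoters were chosen after values were seen, as was the search for TGACG. The members and lists were chosen with earlier results of these data known.

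The settings varied were the pseudocount (1 or 64), the brightness filter (none, or the top 30 percent), median centring, quantile normalization, array weights, an intensity trend, the replicate number as a block, the mean over each gene's probe sets, members above the bacterial controls on all arrays, an adjusted p of 0.1, and each array left out in turn.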

Additional observations from a re-analysis of the deposited data

How the results depend on the processing

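In all 18 alternatives run, 0 members passed the adjusted threshold, and Erbb3 was lower in Ret-deficient kidneys without overlap. Only median centring, quantile normalization and the mean of probe sets could have made the Erbb3 groups overlap. The other settings keep the order of the samples, and leaving out an array cannot make separate groups overlap. With a single array left out, 3 to 7 members (10.3% to 24.1%) had groups that did not overlap. Over all genes the share was 18.4% to 25.9% in the same comparisons, so the rise from 1 is no result about the members. Median centring gave 2, Erbb3 and Dcx. Averaging each gene's probe sets gave 6, namely Ngfr, Erbb3, Elavl3 and Elavl4 lower and Dcx and Syt1 higher. For Erbb3, Elavl3, Dcx and Syt1 the average took in probe sets below the bacterial controls on every array. The share of all genes under median centring or averaging is not given here, so these counts are no result about the members either. The median log2 difference of the glial genes, -0.25, was -0.40 with the top 30 percent filter (3 genes), -0.13 with median centring, -0.49 with array weights and -0.37 with the mean of probe sets, and ran from -0.43 to -0.070 with 1 array left out. The median of the sympathetic genes ran from -0.63 to 0.42 and that of the pan-neuronal genes from -0.47 to 0.18 with 1 array left out, so neither direction held. Median centring moved the median of all genes by 0.11 and turned the sign of Fabp7 (0.0196), Stmn3 (0.022), Snap25 (0.039) and Six2 (0.10). Array weights turned Ednrb (-0.014), Phox2a (0.046), Scg2 (0.38), Stmn3 (0.21) and Uchl1 (-0.21), and the mean of probe sets turned Stmn3 (0.037), Ina (-0.20) and Snap25 (0.015).

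With 1 array left out the sign also turned for genes whose ranges were -0.35 to 0.29 for Uchl1, -0.33 to 0.096 for Fabp7, -0.26 to 0.54 for Chga, -0.47 to 0.32 for Stmn2, -0.93 to 0.42 for Scg2, -0.72 to 0.56 for Stmn3, -0.44 to 0.11 for Gap43, -0.43 to 0.18 for Nefl, -0.67 to 0.24 for Nefm, -0.34 to 0.33 for Snap25, -0.0089 to 1.70 for Th, -0.21 to 0.32 for Ednrb, -0.54 to 0.31 for Phox2a, -1.68 to 0.73 for Dbh and -0.21 to 0.23 for Six2. The range of Erbb3 was -1.98 to -0.88. Ret passed with median centring (adjusted p = 0.047 by limma), with an intensity trend (0.0165) and without Ret-deficient 1 (0.0266). The cause of these changes was not tested. The values did not show a pairing by replicate number: same-numbered deviations correlated at 0.031, -0.042 and -0.12, and not every sample correlated best with its own number. With 3 samples per group these correlations cannot show that no pairing exists. With the replicate block 0 probe sets passed the adjusted threshold and 1141 had an unadjusted p under 0.05, beside 1209 without it.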
